A study of Mus musculus with 22 samples.

Results

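The endocannabinoid system was examined through 8 genes, chosen by symbol: the cannabinoid receptor Cnr1 and the enzymes Dagla, Daglb, Mgll, Faah, Napepld, Abhd6 and Abhd12. All 8 were found among 55385 genes, each under 1 gene identifier, and all 8 passed the filter on low counts. Endocannabinoids are lipid messengers made on demand in cell membranes. In the brain they typically travel backwards across the synapse to the receptor CB1 on axon terminals, where they dampen transmitter release. The diacylglycerol lipases make 2-arachidonoylglycerol (2-AG), which monoacylglycerol lipase, ABHD6 and ABHD12 break down. NAPE-PLD makes anandamide and related N-acylethanolamines, which fatty acid amide hydrolase breaks down.

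Messenger RNA bound to epitope-tagged ribosomes (RiboTag) was sequenced from 6 cell types of 6-week-old mice, with 3 replicates each. All animals carried Rpl22 Fl/+, an allele that tags a ribosomal protein only where Cre is active. Rbp4-Cre gave dentate gyrus granule cells (hippocampus) and layer V neurons (cortex), Gabra6-Cre gave cerebellar granule cells (cerebellum), and Dlx6a-Cre gave inhibitory interneurons (hippocampus, with 2 mice pooled in each library). Aldh1-cre (an Aldh1l1 driver in the study's methods) gave astrocytes and Tmem119-cre gave microglia, both from cortex. By the study's methods these glial lines were inducible with tamoxifen and the neuronal lines were not, so tamoxifen and glial identity cannot be told apart. The cortex gave 3 of the types (layer V neurons, astrocytes and microglia), the hippocampus 2 and the cerebellum 1, so region and cell type cannot be told apart between types of different regions. In such samples, fewer cells of a type and less RNA per cell cannot be told apart.

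The 18 libraries held 38270477 to 71440915 estimated counts. All 7 microglial, 7 astrocyte, 7 interneuron, 4 dentate gyrus and 5 cerebellar granule cell markers were higher in every library of their own type than in every other library. This held for only 2 of 5 layer V markers, with Bcl11b, Etv1 and Rbp4 as exceptions. The summed level of 7 oligodendrocyte markers was 2907 to 3113 TPM (a level normalised to transcript length and to a fixed total per library) in interneurons and at most 1063 TPM in the other libraries. The interneuron and microglia libraries were all from sequencing batch 2 and the other 12 libraries from batch 1. For 4 replicates sequenced in both batches, the level of a member differed by at most 0.22 on the log2 scale (median 0.02 over 32 values). Of all 22 libraries, 1 went against its sex label. It was a batch 2 library of layer V neurons and entered only alternative fits.

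Annotated transcripts of Cnr1 and Mgll begin at different first exons, and the cell types differed in which of them was detected (values further on). Cnr1 lies on chromosome 4 from 33924593 to 33948831 (GRCm38, plus strand). The upstream first exon holds the starts of Cnr1-203, which has no annotated coding sequence, and of Cnr1-201, 39 bases further on, and Cnr1-202 starts in a first exon that lies in an intron of Cnr1-201. The annotated coding sequences of Cnr1-201 and Cnr1-202 have the same length, 473 codons. Mgll lies on chromosome 6 from 88724412 to 88828360 (plus strand). Mgll-204 begins at 88724412 with a first exon that ends at 88724571, a short way upstream of Mgll-207 (from 88724704) and Mgll-201 (from 88724828). Mgll-207 encodes 319 residues and Mgll-204 encodes 303. The 250 bases before 3 of these starts (those of Cnr1-203, Cnr1-202 and Mgll-204) are printed below because the cell types differed in the transcripts detected from them. CG dinucleotides are in capitals. They were read from the RefSeq GRCm38.p6 genome, at chr4:33924343-33924592, chr4:33925952-33926201 and chr6:88724162-88724411, all on the plus strand.

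Before the Cnr1-203 start: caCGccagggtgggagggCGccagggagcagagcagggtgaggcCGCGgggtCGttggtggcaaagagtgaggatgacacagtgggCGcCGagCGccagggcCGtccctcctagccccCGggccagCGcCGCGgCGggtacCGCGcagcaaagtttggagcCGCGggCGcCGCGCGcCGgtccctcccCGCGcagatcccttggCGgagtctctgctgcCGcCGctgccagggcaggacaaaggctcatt
Before the Cnr1-202 start: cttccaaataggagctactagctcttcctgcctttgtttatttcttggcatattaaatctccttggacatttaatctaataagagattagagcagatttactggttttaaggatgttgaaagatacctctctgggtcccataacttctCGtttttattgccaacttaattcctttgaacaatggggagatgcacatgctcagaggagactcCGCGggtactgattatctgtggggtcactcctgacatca
Before the Mgll-204 start: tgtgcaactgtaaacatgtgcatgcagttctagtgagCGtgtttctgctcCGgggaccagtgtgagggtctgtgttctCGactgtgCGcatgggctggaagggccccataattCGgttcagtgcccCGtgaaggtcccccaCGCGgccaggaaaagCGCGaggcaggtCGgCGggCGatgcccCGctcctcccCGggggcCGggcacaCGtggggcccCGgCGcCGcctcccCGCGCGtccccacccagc

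The windows before the starts of Cnr1-203 and Mgll-204 held 28 and 23 CG dinucleotides, and the window before Cnr1-202 held 3. The median over 32817 RefSeq promoter windows of the same length was 6. None of the 3 windows held GGGCGG or TATAAA on either strand, letters found in 32.7% and 12.4% of all promoter windows. A match or its absence describes these letters alone.

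By edgeR's quasi-likelihood test, all 8 genes differed among the 6 cell types at an adjusted p of 0.05, as did 97.3% of the 20524 genes tested. The size of the differences says more than their number. Between the highest and the lowest cell type, mean TPM differed 108-fold for Cnr1, 25.6-fold for Napepld and 14.2-fold for Dagla. It differed 8.33-fold for Faah, 7.88-fold for Mgll, 6.82-fold for Daglb and 4.97-fold for Abhd12. Abhd6 was the flattest, at 1.88-fold. On the log2(TPM + 1) scale the range of the 8 genes had a median of 2.97, against 2.04 over the 15250 genes tested with a mean of at least 1 TPM. By that range Cnr1 stood at percentile 96.7 of these genes and Abhd6 at percentile 9.0.

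**Figure D1:**
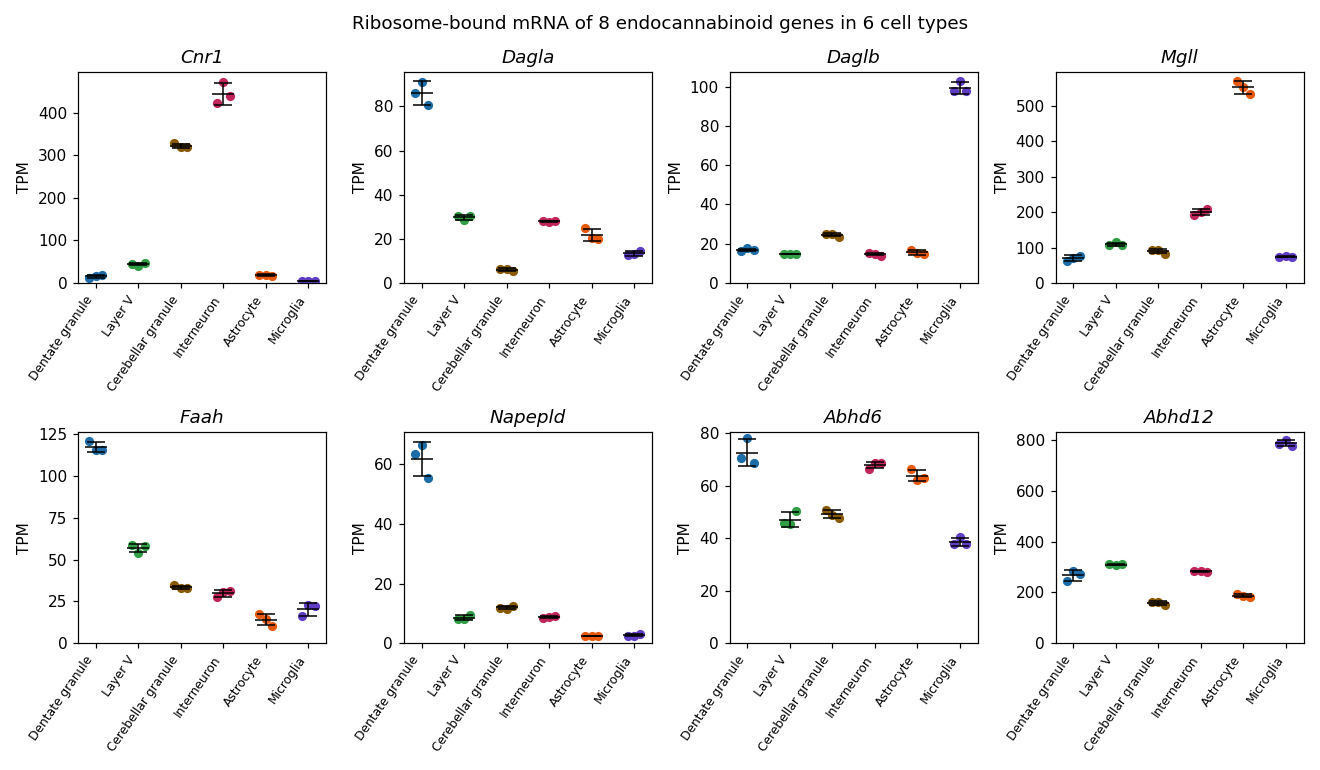
Level of each gene in TPM (linear axis from 0) in each of the 18 libraries (points), with the mean and SD of 3 libraries per cell type (black). Cnr1 peaks in interneurons, Dagla, Faah and Napepld in dentate gyrus granule cells, Mgll in astrocytes, and Daglb and Abhd12 in microglia.

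Cnr1 encodes CB1, the main cannabinoid receptor of the brain. Its level was 422, 439 and 472 TPM in the 3 interneuron libraries and 318, 319 and 328 TPM in cerebellar granule cells. Layer V neurons held 41.0, 43.7 and 46.0 TPM. These 3 cell types did not overlap with each other or with any other. Astrocytes (15.6, 19.6 and 19.9 TPM) and dentate gyrus granule cells (11.9, 15.8 and 19.4 TPM) overlapped in TPM, and microglia were lowest (3.97, 4.05 and 4.31 TPM). All 15 pairs of cell types differed for Cnr1 by edgeR, the smallest step in the order being interneurons over cerebellar granule cells (0.37 on the log2 scale, SE 0.10, edgeR adjusted p = 0.0027).

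Interneurons are rich in Cnr1, so the 7 interneuron markers, which include genes of GABA synthesis, were summed in each cell type. Relative to interneurons, the marker sum was 0.21% in cerebellar granule cells and 0.95% in layer V neurons, where Cnr1 was at 72.4% and 9.80% of its interneuron level. In dentate gyrus granule cells, astrocytes and microglia the marker sum was 4.59%, 3.38% and 1.13%, and Cnr1 was at 3.53%, 4.13% and 0.92%. Most of the sum in dentate gyrus granule cells was Gad1 (150 of 162 TPM), an enzyme of GABA synthesis, and without it the other 6 markers summed to 0.85% of their interneuron level. Without Gad1 the sum was 4.79% in astrocytes and 1.57% in microglia, and single markers ran from 2.34 to 17.4% and from 0.71 to 6.34% of their interneuron level. The part of interneuron RNA in the Cnr1 level of these 3 types was not tested.

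The cell types also differed in the Cnr1 start. Transcripts from the upstream exon (Cnr1-201 and Cnr1-203) made up 87.3% ± 1.7 (SD, n = 3) of Cnr1 TPM in interneurons, while cerebellar granule cells had 57.3% ± 3.4 and layer V neurons 31.3% ± 4.9. The ranges of these 3 types did not overlap: 85.9 to 89.2%, 53.6 to 60.1% and 27.2 to 36.7%. Layer V neurons thus had most of their Cnr1 on Cnr1-202, whose upstream window is the one with 3 CG dinucleotides. In astrocytes the share was 83.8% (77.7 to 88.7%), a range that overlapped the interneuron one. Dentate gyrus granule cells had 69.3% (60.8 to 73.8%). The share in microglia ran from 21.7 to 62.6% on at most 4.31 TPM of the gene. These shares rest on how kallisto divided reads between transcripts that share most of their sequence, and carry no test.

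Dagla and Daglb encode the diacylglycerol lipases alpha and beta. Dagla (chromosome 19 from 10245265 to 10304877, minus strand) was highest in dentate gyrus granule cells, at 80.5, 86.2 and 91.3 TPM. Layer V neurons (28.5, 30.3 and 30.5 TPM) and interneurons (27.6, 28.0 and 28.2 TPM) followed. Cerebellar granule cells were lowest, at 5.50, 6.22 and 6.48 TPM, below even microglia (12.6, 13.1 and 14.6 TPM). Astrocytes held 20.1, 20.4 and 25.1 TPM, and their difference from interneurons did not pass the test in the fit (0.02 on the log2 scale in favour of astrocytes, SE 0.07, edgeR adjusted p = 0.79), although their TPM did not overlap.

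Daglb (chromosome 5 from 143464584 to 143505942, plus strand) had another order. Microglia held 97.7, 97.9 and 103 TPM, and cerebellar granule cells came next with 23.6, 24.9 and 25.1 TPM. The other 4 types lay between 14.0 and 17.6 TPM, where the order of neighbours depended on the scaling: astrocytes were below dentate gyrus granule cells in mean TPM (15.6 against 16.9) and above them in the fit (0.18 on the log2 scale, SE 0.06, edgeR adjusted p = 0.0084). The 7 microglial markers summed to at most 0.42% of their microglial level in any other type. Single markers reached 0.72% (P2ry12 in astrocytes). Daglb stood at 14.7 to 24.6% of its microglial level in the other types. The part of microglial RNA in these Daglb levels was not tested.

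The log2 ratio of Dagla to Daglb TPM was 2.35 ± 0.06 (SD, n = 3) in dentate gyrus granule cells, then 1.01 ± 0.07 for layer V neurons, 0.94 ± 0.06 for interneurons and 0.48 ± 0.08 for astrocytes. It was -2.02 ± 0.08 in cerebellar granule cells and -2.89 ± 0.13 in microglia. Daglb was thus the more abundant lipase mRNA per length in these last types only.

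Mgll encodes monoacylglycerol lipase, the main 2-AG hydrolase of the brain. It was highest in astrocytes, at 532, 554 and 568 TPM. Interneurons held 192, 201 and 208 TPM, and layer V neurons held 107, 108 and 114 TPM. Cerebellar granule cells (82.7 to 93.6 TPM), microglia (73.0 to 75.1 TPM) and dentate gyrus granule cells (62.2 to 77.3 TPM) were lowest, and the last pair overlapped. The 7 astrocyte markers summed to at most 2.21% of their astrocyte level in any other type. Single markers reached 7.92% (Aldh1l1 in layer V neurons) and 7.32% (Gfap in microglia). Mgll stood at 12.7 to 36.3% of its astrocyte level in the other types. The part of astrocyte RNA in these Mgll levels was not tested.

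Most astrocyte Mgll came from the upstream first exon: 87.4% ± 0.9 (SD, n = 3) of the gene's TPM, of which Mgll-204 alone was 474 ± 18.1 TPM. The share was 70.1% ± 1.3 in microglia, then 46.5% ± 1.6 for layer V neurons, 39.0% ± 0.2 for interneurons, 33.5% ± 2.1 in dentate gyrus granule cells and 26.6% ± 6.4 in cerebellar granule cells. No neuronal library (19.3 to 47.7%) reached the lowest of the 6 glial ones (68.7 to 88.3%). From the downstream exon, interneurons had more Mgll (122 ± 3.97 TPM) than astrocytes (68.8 ± 4.27 TPM). Mgll-207, with the longer coding sequence, was 76.5 ± 3.48 TPM in interneurons and 41.6 ± 2.12 TPM in astrocytes.

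**Figure D2:**
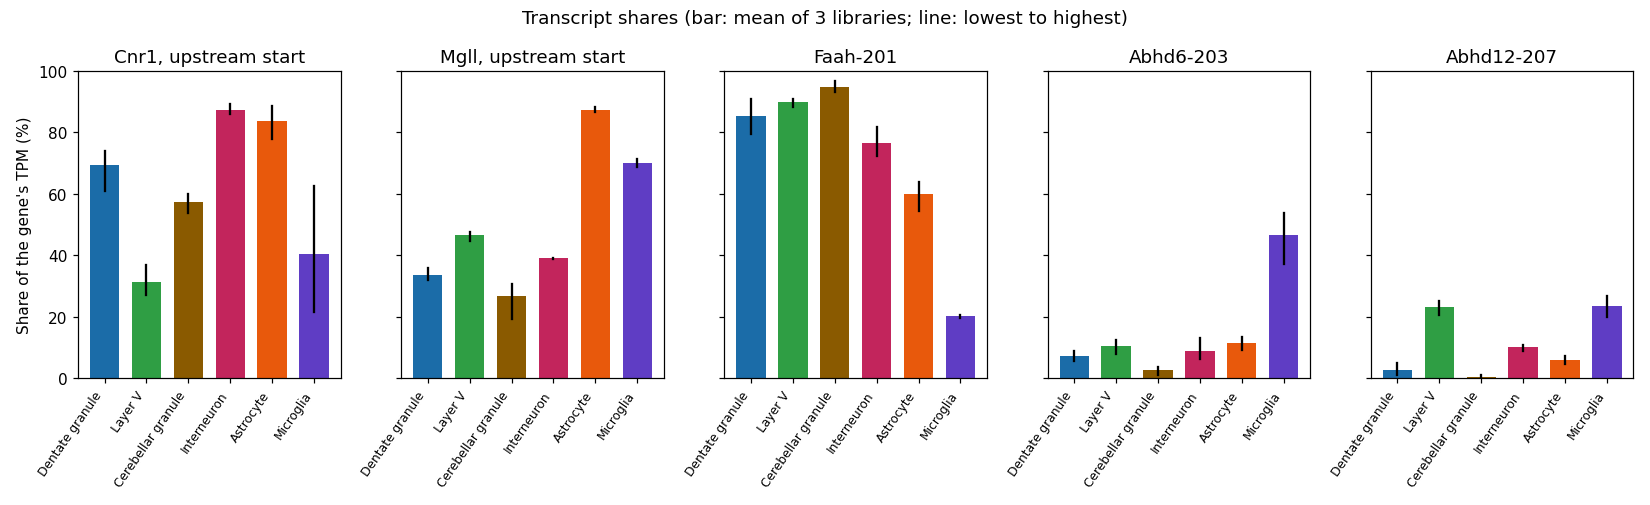
Share of a gene's TPM (percent, axis from 0 to 100) held by transcripts from the upstream first exon of Cnr1 and of Mgll and by Faah-201, Abhd6-203 and Abhd12-207, in 6 cell types. Bars are means of 3 libraries and lines run from the lowest to the highest library. The Mgll share is 87.4% in astrocytes and 26.6% in cerebellar granule cells, and Faah-201 falls to 20.4% in microglia.

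Abhd12 encodes a hydrolase of 2-AG and of lysophosphatidylserine. Microglia held 777, 786 and 799 TPM, above every other library (151 to 311 TPM). Layer V neurons (308, 311 and 311 TPM), interneurons (280, 284 and 285 TPM) and dentate gyrus granule cells (244, 275 and 286 TPM) formed a middle group. Astrocytes (181, 188 and 194 TPM) and cerebellar granule cells (151, 162 and 163 TPM) were lowest. Interneurons and dentate gyrus granule cells overlapped, and their difference did not pass the test (adjusted p = 0.57 from edgeR). Of Abhd12 TPM, 23.6% in microglia and 23.2% in layer V neurons were assigned to Abhd12-207, which has no annotated coding sequence and begins within the gene (chromosome 2, first exon from 150842511 to 150842570). That share was at most 10.7% in every library of the other types.

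Abhd6, a further 2-AG hydrolase, which is bound to membranes, varied least. It ranged from 68.7 to 78.3 TPM in dentate gyrus granule cells, from 66.4 to 68.6 TPM in interneurons and from 62.0 to 66.2 TPM in astrocytes. Cerebellar granule cells (47.6 to 50.7 TPM) and layer V neurons (45.4 to 50.2 TPM) overlapped, with no difference past the threshold (adjusted p = 0.067 from edgeR), and microglia held 37.6 to 40.2 TPM. In the fit, astrocytes were above interneurons (0.29 on the log2 scale, SE 0.06, edgeR adjusted p = 0.00017), the reverse of their TPM. In microglia 46.6% of the gene's TPM was on Abhd6-203, which encodes 289 residues where Abhd6-202 encodes 336. In the other types the mean share of Abhd6-203 was at most 11.6%.

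Of the summed TPM of Mgll, Abhd6 and Abhd12, Mgll was 68.7% ± 0.2 (SD, n = 3) in astrocytes and 8.2% ± 0.1 in microglia. Among neurons the ranges did not overlap, in the order from dentate gyrus granule cells (16.2 to 18.4%) through layer V neurons (23.0 to 24.5%) and cerebellar granule cells (29.4 to 30.8%) to interneurons (35.3 to 37.5%). Abhd12 was the largest of the 3 in every cell type but astrocytes, up to 87.5% in microglia. Levels of mRNA do not give the activity of the enzymes.

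**Figure D3:**
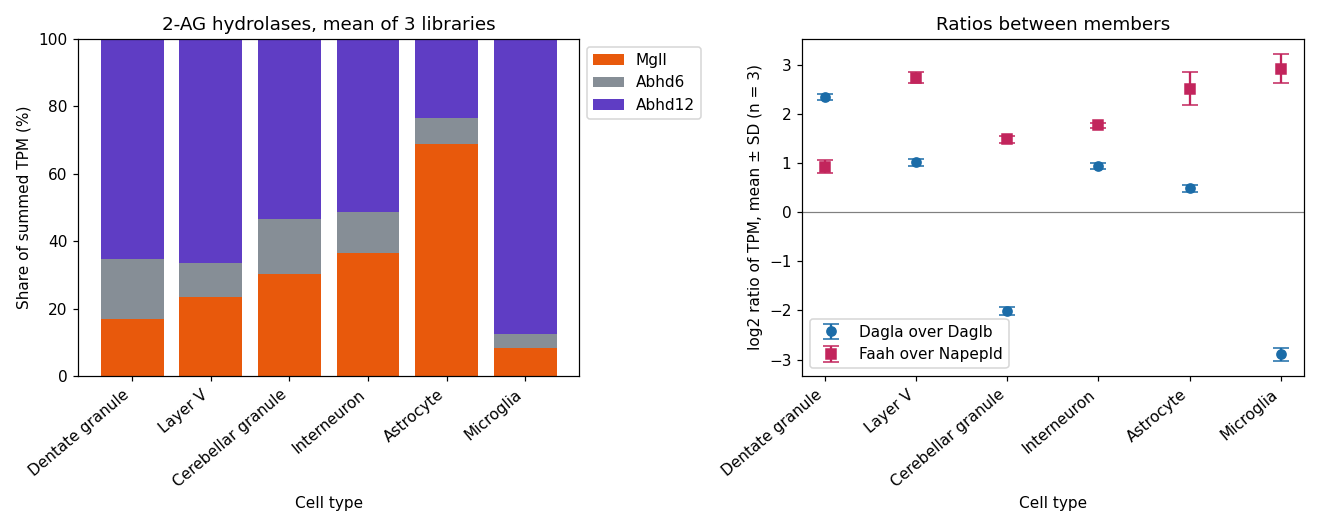
Left, share of the summed TPM of the 2-AG hydrolases Mgll, Abhd6 and Abhd12 by cell type (percent, means of 3 libraries). Right, log2 ratio of TPM of Dagla over Daglb (circles) and Faah over Napepld (squares), mean and SD of 3 libraries. Mgll takes 68.7% in astrocytes and 8.2% in microglia, and Dagla over Daglb is below 0 in cerebellar granule cells and microglia.

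Napepld and Faah stand at the start and the end of the anandamide route. Napepld (chromosome 5 from 21662901 to 21701396, minus strand) was at 55.3, 63.5 and 66.4 TPM in dentate gyrus granule cells. No library of another type exceeded 12.7 TPM. Cerebellar granule cells held 11.5 to 12.7 TPM, interneurons 8.38 to 9.05 TPM and layer V neurons 8.07 to 9.42 TPM. The last pair overlapped. In the fit interneurons were below layer V neurons (-0.28 on the log2 scale, SE 0.09, edgeR adjusted p = 0.010), the reverse of their mean TPM. Astrocytes (2.36 to 2.50 TPM) and microglia (2.42 to 3.02 TPM) were lowest, overlapped, and did not differ past the threshold (adjusted p = 0.49 from edgeR). The 4 dentate markers summed to 13.6% of their own level in interneurons, where Napepld was at 14.1% of its dentate level. Most of that sum was Calb1 (153 TPM), and without it the other 3 markers stood at 2.48% of their dentate level. The part of dentate RNA in the Napepld level was not tested.

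Faah (chromosome 4 from 115967145 to 116017926, minus strand) was also highest in dentate gyrus granule cells, at 115, 116 and 121 TPM. Layer V neurons followed (54.2, 58.0 and 58.7 TPM), then cerebellar granule cells (32.8 to 34.6 TPM) and interneurons (27.4 to 31.5 TPM), all without overlap. Microglia (16.0, 22.1 and 22.8 TPM) and astrocytes (10.5, 14.5 and 17.2 TPM) overlapped. The only Faah transcript annotated as protein-coding, Faah-201, held 94.6% of the gene's TPM in cerebellar granule cells, 60.1% in astrocytes and 20.4% in microglia, where most of the rest was on transcripts annotated as retained introns. Faah-201 itself was thus 4.12 ± 0.72 TPM (SD, n = 3) in microglia and 8.36 ± 1.45 TPM in astrocytes. The 5 neuron markers (Rbfox3, Snap25, Syt1, Map2 and Tubb3) summed to 13.2% of their mean neuronal level in astrocytes and 5.06% in microglia. Single markers ran from 10.1 to 46.3% in astrocytes and from 3.85 to 11.4% in microglia. The part of neuronal RNA in the glial levels of Faah, Napepld, Dagla and Cnr1 was not tested.

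Over all 15 pairs of cell types, 114 of 120 comparisons of a member passed the threshold. Cnr1, Mgll and Faah differed in 15 pairs, Dagla, Daglb, Napepld and Abhd12 in 14 and Abhd6 in 13. The pairs that did not pass, beside those given above, were Daglb between dentate gyrus granule cells and layer V neurons (adjusted p = 0.72 from edgeR) and Abhd6 between dentate gyrus granule cells and astrocytes (adjusted p = 0.11 from edgeR). These counts stand on a high background. Of all genes tested, dentate gyrus granule cells differed in 63.4% from layer V neurons, 73.9% from cerebellar granule cells, 63.9% from interneurons, 74.2% from astrocytes and 79.8% from microglia. Layer V neurons differed in 76.1% from cerebellar granule cells, 60.7% from interneurons, 77.2% from astrocytes and 83.2% from microglia. Cerebellar granule cells differed in 75.2% from interneurons, 82.7% from astrocytes and 85.5% from microglia. Interneurons differed in 73.2% from astrocytes and 80.8% from microglia, and astrocytes in 76.1% from microglia.

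Between the glial types and the neuronal types (means over types), 7 of 8 genes differed, against 83.3% of all genes. Daglb, Mgll and Abhd12 were higher in glia (46.8% of all genes were), and Cnr1, Dagla, Faah and Napepld were lower (36.4% of all genes were). The log2 fold change was -3.30 for Cnr1, -2.40 for Napepld, -1.69 for Faah, -0.36 for Dagla, 1.40 for Daglb, 1.05 for Mgll and 0.83 for Abhd12, with standard errors from 0.03 to 0.07. Changes of at least 2-fold were called for 5 of 8 genes and for 46.3% of all genes. The median log2 fold change was -0.20 over the members and 0.18 over all genes, and the median size was 1.22 and 0.93. On log2(TPM + 1) by limma the split of all genes called turned from 9607 higher and 7480 lower to 6771 and 8595, with 3 members higher in both. Abhd6 did not pass the threshold (log2 fold change -0.05, adjusted p = 0.20 from edgeR), and it passed when single neuronal libraries, among others, were left out.

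The glial mean joined unlike types. Batch 1 held astrocytes as its only glia and no interneurons, so both sides of the comparison changed. Interneurons had the highest Cnr1 of all types and the highest Mgll among neurons. Within batch 1 the log2 fold change was -1.43 for Cnr1, 2.87 for Mgll, -2.07 for Faah and -2.69 for Napepld. Within that batch Daglb was at 0.03, Abhd12 at -0.04 and Dagla at 0.09, none past the threshold (adjusted p = 0.50, 0.32 and 0.20 from edgeR), and Abhd6 was higher in astrocytes by 0.46. The glial excess of Daglb and Abhd12 was called only in fits that held microglia. Within batch 2, with astrocytes from 1 library, the values were -3.35 for Cnr1, 0.97 for Mgll, 1.26 for Daglb and 0.74 for Abhd12.

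Between interneurons and the mean of the 3 excitatory types, 6 of 8 genes differed, against 64.4% of all genes. Cnr1, Mgll and Abhd6 were higher in interneurons (36.0% of all genes were), and Daglb, Faah and Napepld were lower (28.4% of all genes were). The log2 fold change was 2.74 for Cnr1, 1.01 for Mgll, -1.28 for Faah, -1.25 for Napepld and -0.49 for Daglb, with standard errors from 0.04 to 0.08. The split of all genes called was 7389 higher and 5838 lower, and 7641 and 3936 by limma on log2(TPM + 0.1). Changes of at least 2-fold were called for 4 of 8 genes and for 24.6% of all genes. Abhd6 was higher by 0.12 (adjusted p = 0.029 from edgeR), a call lost within batch 2 (0.11, adjusted p = 0.090 from edgeR), with protein-coding transcripts only and with all 22 libraries and batch as a term. It was also lost without dentate gyrus replicate 3, layer V replicate 1 or 2, cerebellar replicate 2 or 3, or interneuron replicate 1 (largest adjusted p = 0.13 from edgeR). Dagla and Abhd12 differed by 0.01 and 0.08 (adjusted p = 0.92 and 0.071 from edgeR). All interneuron libraries were of batch 2, and within it, with 1 library of each excitatory type, Cnr1 was higher by 2.64 and Mgll by 0.98. The part of the oligodendrocyte markers, which were highest in interneurons, in the Mgll value was not tested.

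**Figure D4:**
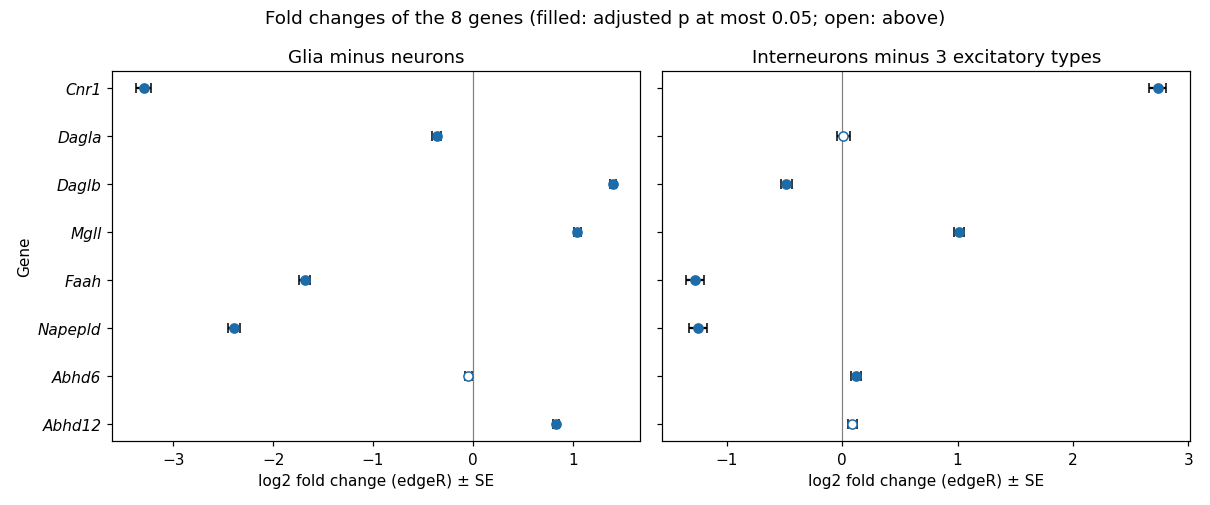
log2 fold change and standard error of each gene between glia and neurons (left) and between interneurons and the 3 excitatory types (right), from 1 edgeR fit of 18 libraries. Filled points have an adjusted p of at most 0.05. Cnr1 stands farthest from 0 in both, at -3.30 and 2.74.

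The 4 ratios between members were compared over 6 glial and 12 neuronal libraries by an exact permutation test (two-sided, 18564 arrangements, adjusted over the 4 ratios). The log2 ratio of Faah to Napepld was 2.72 in glia and 1.73 in neurons (p = 0.0058, adjusted p = 0.023 by the exact permutation test). Its ranges overlapped (2.15 to 3.23 and 0.80 to 2.85), and with protein-coding transcripts only the difference turned from 0.99 to -0.31 (p = 0.38, same exact test). Within batch 1 it was 0.80 (p = 0.15, same exact test). The ratio of Dagla to Daglb, the Mgll share and the ratio of lipases to 2-AG hydrolases did not pass (adjusted p = 0.12, 0.26 and 0.14, same exact test). Within a batch the test had fewer libraries and fewer arrangements, and batch 1 held no interneurons. The Mgll share was 45.1 percentage points higher in glia within batch 1, where glia were astrocytes (p = 0.0045, same exact test). That p is the smallest that the arrangements within batch 1 allow. The glial libraries there were all of 1 cell type, so that p does not bear on glia as a class. Within batch 2, with 1 astrocyte and 3 microglia libraries, it was -6.53 percentage points (p = 0.65, same exact test). The log2 ratio of Dagla to Daglb differed by 0.04 within batch 1 and by -2.70 within batch 2 (p = 0.93 and 0.029, same exact test). That of lipases to hydrolases differed by -1.54 and -0.09 (p = 0.0091 and 0.86, same exact test). Each of these tests counts libraries of a cell type as independent, so no p within a batch bears on glia as a class. The astrocyte replicate sequenced in both batches had 554 and 562 TPM of Mgll, 20.4 and 20.3 TPM of Dagla, and 188 and 188 TPM of Abhd12. Libraries of a cell type lie close together, and over the 6 cell types the 15 arrangements allow no p under 0.067. There the exact permutation p was 0.27 for Faah to Napepld, 0.33 for Dagla to Daglb, 0.67 for the Mgll share and 0.53 for lipases to hydrolases.

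Of 25 other genes of the pathway, 21 passed the filter on low counts, of which 11 were higher and 10 lower in glia than in neurons, against 46.8% higher and 36.4% lower of all genes. The receptor Cnr2, which encodes CB2, was at 6.04 ± 0.59 TPM (SD, n = 3) in microglia and at most 0.05 TPM on average in each other type. Cnrip1, which encodes a protein that binds CB1, was at 99.3 to 132 TPM on average in the neuronal types and at 39.8 and 34.3 TPM in astrocytes and microglia. Sgip1, linked to endocytosis and CB1, was at 151 TPM in cerebellar granule cells and 13.5 TPM in microglia.

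Several genes of N-acylethanolamine metabolism peaked in astrocytes, where Napepld was low. Naaa, an acid amidase that degrades N-acylethanolamines, was at 229 ± 6.72 TPM (SD, n = 3) in astrocytes, 49.8 ± 0.60 TPM in microglia and at most 12.3 TPM on average in the neuronal types. Abhd4, which acts on N-acyl phospholipids, was at 243 ± 11.9 TPM in astrocytes, 68.1 TPM in microglia and at most 15.3 TPM in neurons. Plaat3, an acyltransferase and phospholipase, was at 115 ± 1.89 TPM in astrocytes and at most 12.0 TPM elsewhere. The log2 fold changes between glia and neurons were 4.01, 4.02 and 4.21 (edgeR, adjusted p = 4.4e-21, 9.5e-22 and 3.8e-21). For Gde1 and Gdpd1, phosphodiesterases of the same route, the log2 fold changes were -0.54 and -1.33. Gde1 was at 222 TPM in astrocytes, within the range of the neuronal means (147 to 293 TPM), and at 71.1 TPM in microglia. The lipid carriers Fabp5 and Fabp7 were at 811 ± 27.3 and 904 ± 106 TPM in astrocytes, while Fabp3 was highest in layer V neurons (350 ± 4.54 TPM).

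Upstream of the lipases, Plcb1, a phospholipase C, was at 107 TPM on average in dentate gyrus granule cells and 102 TPM in layer V neurons, and Plcb4 was at 362 ± 10.8 TPM in cerebellar granule cells, which had 20.1 TPM of Plcb1. Abhd16a, a lipase of phosphatidylserine, was also highest in cerebellar granule cells (298 ± 14.2 TPM). Inpp5d, an inositol phosphatase, was at 404 ± 8.79 TPM in microglia and at most 4.17 TPM elsewhere. Ptgs2, the cyclooxygenase that can oxidise endocannabinoids, was at 13.0 TPM in dentate gyrus granule cells 4.00 TPM in layer V neurons, 0.42 TPM in interneurons and 0.0034 TPM in cerebellar granule cells, against 0.95 TPM in astrocytes and 0.54 TPM in microglia. Its fitted log2 change between glia and neurons, from means of log values over types, was 0.52. Plaat1 was highest in layer V neurons (25.3 TPM) and interneurons (19.4 TPM). Between interneurons and excitatory types, 10 of the 21 genes were higher, 3 lower and 8 not past the threshold, against 36.0% higher and 28.4% lower of all genes.

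The pattern of each member was also set beside those of all genes tested with a mean of at least 1 TPM, by Pearson's r of log2(TPM + 1) over the 18 libraries, which share their cell types in groups of 3. The 3 closest genes were Inpp5f (r = 0.995), Fstl5 and Gria4 for Cnr1, and Sgsm2 (r = 0.991), Arhgef28 and Dnah1 for Dagla. They were Serinc3 (r = 0.995), St14 and Gm42031 for Daglb, Msi1 (r = 0.988), Echdc1 and Gm49492 for Mgll, and Strn4 (r = 0.983), Spata2l and 1700056N10Rik for Faah. They were Pip5k1a (r = 0.990), Utp4 and Ip6k2 for Napepld, Plekhd1 (r = 0.958), Pno1 and Fgd1 for Abhd6, and Rpl23 (r = 0.987), Bin3 and Csnk1e for Abhd12. Inpp5f, for example, was at 155 and 148 TPM in interneurons and cerebellar granule cells and at 14.2 TPM in microglia.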

How the data were processed

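RiboTag mRNA libraries of 6 cell types were analysed. After trimming (cutadapt 3.5) and pseudoalignment to GENCODE M24 transcripts of GRCm38 (kallisto 0.46.2), the authors deposited estimated counts, not normalised, and TPM for each transcript, with the effective length. The split of reads between similar transcripts is an estimate whose error was not available to the tests. Values were summed over the transcripts of each gene, and the 8 members were found by symbol. Each of 18 replicates gave 1 library, that of batch 1 for the 4 sequenced again. Transcript and gene coordinates came from GENCODE M21, in which all 40 member transcripts had the same versioned identifier.

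Estimated counts, as whole numbers after rounding, were compared in 1 fit by edgeR 4.0.16 (TMM, filterByExpr, quasi-likelihood) in R 4.3.3, with p-values adjusted by Benjamini-Hochberg over 20524 genes and a threshold of 0.05. Alternatives used DESeq2 1.42.0 and limma 3.58.1, other filters, scalings, batches, the replicate number as a block, and each replicate left out. The authors' test, sleuth, was not run. Ratios were tested by exact permutation in Python 3.11.15. P-values of the fits measure only the spread between these replicates. The permutation tests over libraries exchange them between cell types as if the replicates of a type were independent. Their p-values do not measure the spread between types, which enters only in the arrangements of the 6 cell types. Members, gene lists and tests were chosen with earlier results of these data known. Named were the 8 members, pathway genes (with values where a cell type had a mean of at least 10 TPM), and for each member the 3 genes of highest correlation. Cnr2, below that level, was named after its value was seen.

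In a simulation of the comparison of glia with neurons, the fit tested 19463 genes and called 82 of 100 genes changed 2-fold and 89 of 100 changed 4-fold, and 11 unchanged genes. Of those changed, 3 and 8 were removed by the filter on low counts. Every one of the 97 and 92 tested had the right sign. A first requirement of 9 in 10 recovered was not met. After the misses were examined, it was replaced by one on genes with a mean of at least 50 simulated counts, of which 73 of 74 and 73 of 73 were called. The members had at least 261 estimated counts in every library. Apart from the 200 changed genes, each simulated gene had the same mean in all cell types. In the data 83.3% of genes were called between glia and neurons. Scaling under so broad a difference was not simulated, so these rates do not carry over to the fit of the data.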

Additional observations from a re-analysis of the deposited data

How the results depend on the processing

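With all 22 libraries and batch as a term, where the 4 replicates sequenced again entered as separate libraries, 8 of 8 members and 20389 of 20927 genes differed among the cell types. Over all alternatives run, members called between glia and neurons numbered from 5 (within batch 1) to 8, those between interneurons and excitatory types from 5 to 7, and calls over pairs of cell types from 105 to 114 of 120. Within batch 1, 3 values between glia and neurons turned: Dagla to 0.086, Abhd6 to 0.46 and Abhd12 to -0.042 on the log2 scale. The difference in log2 Faah to Napepld turned to -0.31 with protein-coding transcripts only and was 0.80 (exact p = 0.15) within batch 1. For log2 Dagla to Daglb it was 0.04 within batch 1 and -2.70 within batch 2 (exact p = 0.93 and 0.029). The Mgll share differed by 45.1 percentage points within batch 1 and -6.53 within batch 2 (exact p = 0.0045 and 0.65), and by 5.14 on CPM of estimated counts (11.7 on TPM). Log2 lipases to hydrolases differed by -1.54 and -0.09 (exact p = 0.0091 and 0.86). Batch 1 held astrocytes as its only glia and no interneurons, and batch 2 held 1 astrocyte and 3 microglia libraries. The exact p-values within a batch count libraries of a cell type as independent, so they do not bear on glia as a class. With each replicate left out in turn, log2 Dagla to Daglb ran from -2.13 to -1.42 and passed an exact p of 0.05 without any 1 of the cerebellar granule cell or astrocyte replicates. That test counts replicates of a type as independent, and with all replicates the exact permutation p over the 6 cell types was 0.33. The Mgll share ran from 5.61 to 17.8 percentage points, log2 lipases to hydrolases from -0.77 to -0.46 and log2 Faah to Napepld from 0.89 to 1.10. The median log2 fold change of all genes between glia and neurons was 0.18, and lay between -0.12 (limma on TPM) and 0.31 (no filter).

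Replicate numbers were not taken as pairs, since not every pair correlated above 0.1: over 45 pairs of samples the correlation of deviations from the group means ran from -0.075 to 0.22 (median 0.087), with 20 above 0.1, among them all 3 between dentate gyrus granule cells and microglia. Dentate gyrus granule cells and layer V neurons shared the Rbp4-Cre line and, in batch 1, the order of sex labels. Their correlations were 0.051, -0.022 and 0.185. Whether they came from the same animals is not stated, and these correlations cannot decide it. With the replicate number as a block, 17029 genes and 7 members were called between glia and neurons, 13131 genes and 6 members between interneurons and excitatory types, and 114 pairs, and no member's call changed. Within batch 1 no interneuron comparison or set of 15 pairs could be had. Transcript shares are limited by reads shared between transcripts, and by depth for Cnr1 in microglia.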
